A study of Mus musculus with 12 samples.

Results

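The peaks described here lay at a nearly complete seed match to the microRNA miR-451a, broken by 1 mismatch at position 6 of the seed. Of the 106382 peaks in the authors' deposited table, 2621 carried this code for miR-451a and no code for miR-144-3p, the other main microRNA of the same locus. A further 771 peaks had the position 6 code together with a miR-144-3p code and were not counted as members. The choice rested on the deposited seed codes alone and used no read count. The members fell in 1566 named genes, with 783 peaks in 3′UTRs, 680 in coding sequence, 338 in introns, 39 in 5′UTRs, 45 in pseudogenes, 679 outside genes and 57 elsewhere. Their median width was 28 nt, against 27 nt for all peaks, and both had a median of 10 reads over the 6 Ago libraries.

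The peaks came from HITS-CLIP, in which RNA crosslinked to Argonaute (Ago) is precipitated with an antibody and sequenced, so that reads pile up where Ago sat on a transcript. Fetal liver cells of C57BL/6J mouse embryos were used, 100000000 cells for the assay. Each of 4 groups held 3 libraries: miR-144/451 KO cells with an Ago antibody (numbers 3, 12 and 13), WT cells with an Ago antibody (1, 9 and 10), KO cells with control IgG (4, 8 and 14) and WT cells with control IgG (2, 6 and 11). KO and WT shared strain and tissue and differed in the miR-144/451 locus, whose loss removes miR-144 as well as miR-451a. The age of the embryos, the kind of allele, and whether a library came from 1 liver or a pool are not stated in the sources used here, so p-values measure the spread between these libraries, which may be technical.

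MicroRNAs guide Ago to transcripts mainly through the seed, the stretch near their 5′ end that pairs with the target. miR-451a is made without Dicer: its hairpin is cut by Ago2 itself, and it is among the most abundant microRNAs of developing red cells, which make up much of the fetal liver. The miR-144/451 locus is switched on by the erythroid factor Gata1.

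The mature microRNAs, from RefSeq (GRCm38.p6), are printed 5′ to 3′ with seed bases 2 to 8 in capitals, to show which pairing the code describes. Their genes lie on the plus strand, the mature miR-451a at chr11:78073186-78073207 and miR-144-3p at chr11:78073047-78073066.
miR-451a: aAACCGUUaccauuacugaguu
miR-144-3p: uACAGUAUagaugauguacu
A full match to seed positions 2 to 7 of miR-451a reads ACGGTT in the transcript. Position 6 of the seed faces base 2 of this 6-mer, counted from 1 at its 5′ end, so the mismatched forms are AAGGTT (C2A), AGGGTT (C2G) and ATGGTT (C2T). The C2T form can still make a G:U wobble pair. Among peaks lying whole in a RefSeq promoter window, 7 of 7 with the position 6 code held one of these forms within the peak or 5 bases of it. This was so for 0 of 237 such peaks without a miR-451a code and 0 of 45 with another miR-451a code. On the gene strand, 18.1% of 32851 windows of 300 bases held a form (AAGGTT 6.42%, AGGGTT 7.63%, ATGGTT 5.22%), and 1.85% held the full 6-mer.

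Of those 7 peaks, 5 were members, and their sites are shown as examples of each form, with the mismatched 6-mer in capitals and flanking bases of the same strand. They lie in an intron of Ncor1, a nuclear receptor corepressor (chr11:62438485-62438508, minus strand), in intergenic peaks at the starts of Gm20187 (chr12:27114950-27114973, minus strand) and Gm35827 (chr15:24724862-24724885, plus strand), just downstream in the annotation of Camk1g, a calmodulin-dependent kinase (chr1:193370443-193370466, minus strand), and in the 3′UTR of Apoc4, an apolipoprotein (chr7:19678140-19678163, minus strand).
Ncor1: cctagaaacATGGTTgtttgttgg
Gm20187: agaagattgAGGGTTcaaaggtag
Gm35827: ctggataccAAGGTTcttcattgt
Camk1g: gggcattaaAGGGTTctttctgag
Apoc4: accggactcAGGGTTaaagtgcca
All 5 had few reads and none could be tested. Ncor1 had 2, 2 and 0 reads in KO Ago libraries, against 4, 3 and 2 in WT Ago libraries. The sequences of the members that changed are not shown here.

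The libraries held 147969 to 341061 reads in peaks for KO Ago, 202876 to 452157 for WT Ago, 24622 to 42916 for KO IgG and 25985 to 42399 for WT IgG. No peak overlapped the Mir144 or Mir451a hairpin, so the genotype could not be checked on the deleted locus and was taken from the labels. Peaks in an erythroid list (39 of 48 genes had a peak; the 9 without included the listed globins) took 2.38 to 2.77% of the reads in KO Ago libraries and 2.95 to 3.54% in WT Ago libraries. Peaks in a hepatocyte list (16 of 16 genes) took 1.23 to 2.45% in KO Ago and 0.669 to 1.98% in WT Ago. Macrophage genes (9 of 10, none at Cd68) took 0.0357 to 0.0431% and 0.0216 to 0.0508%, granulocyte genes (10 of 10) 0.149 to 0.233% and 0.130 to 0.193%, and megakaryocyte genes (4 of 9, none at Gp1ba, Gp1bb, Gp9 or Itga2b, among others) 0.0150 to 0.0203% and 0.00937 to 0.0147%, KO Ago first in each pair. In IgG libraries, erythroid peaks took 2.702 ± 0.609% in KO and 2.459 ± 0.653% in WT (SD, n = 3 each), with overlap between the groups. Hepatocyte peaks took 2.344 ± 0.418% and 2.088 ± 0.389% there, also with overlap. The part of the shifts between Ago libraries in the results was not tested. In bulk samples, fewer cells of a type, less RNA per cell and less Ago binding cannot be told apart from these shares.

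The first comparison asked whether Ago sat on the position 6 mismatch peaks as often when miR-144 and miR-451a were missing. All 2621 members together took 2.14, 2.08 and 2.13% of the reads in KO Ago libraries 3, 12 and 13, against 2.97, 2.86 and 2.79% in WT Ago libraries 1, 9 and 10. The groups did not overlap: the mean was 2.12 ± 0.0354% in KO and 2.87 ± 0.0938% in WT (SD, n = 3 each). In the IgG controls the members took 3.10 ± 0.217% in KO and 3.12 ± 0.338% in WT, so as a whole they held no smaller share without the Ago antibody than with it.

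Per peak, 75 members had enough reads for a test with edgeR's quasi-likelihood model, which was fitted on all 2425 peaks that passed the same filter. After Benjamini-Hochberg adjustment at 0.05, 26 members in 25 genes were lower in KO than in WT, 0 were higher and 49 were not called. Thus 34.7% of the tested members were lower, where 17.6% of all tested peaks were lower and 1.40% higher. Without adjustment, p was under 0.05 for 32 members that were lower and 1 that was higher. Of all 2425 tested peaks, 506 were lower and 135 higher at that limit. DESeq2 called 22 lower and 0 higher, and limma-voom 25 and 0, where they called 15.4% and 17.3% of all tested peaks lower. The median change of the tested members was -0.63 on the log2 scale of KO over WT, against 0.09 for all tested peaks, and their quartiles were -1.68 and 0.21. The filter needed reads in 3 libraries, and 24 of the 26 lower members reached its minimum in all 3 WT libraries but not in all 3 KO libraries. Passing only through WT favours a fall, so these calls are not independent of the filter. It did not force a call in every case: 30 tested members passed in this way, of which 24 were lower. Among all 2425 tested peaks, 556 passed in this way. Among the 15 members that reached the minimum in all 6 libraries, 2 were lower, Sri among them, against 20 of 612 such peaks in the whole table (3.27%).

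**Figure D1:**
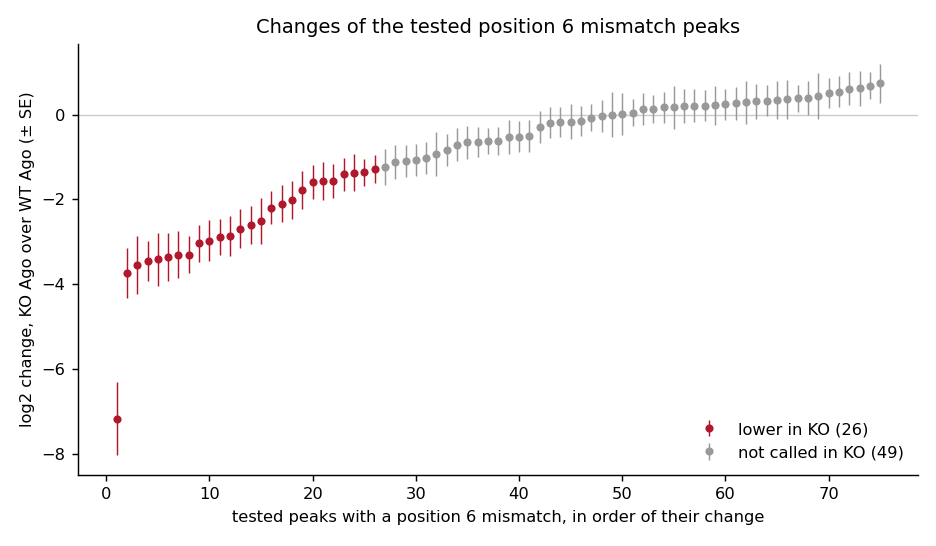
Log2 change of KO Ago over WT Ago (vertical axis, ± SE from edgeR) for the 75 tested peaks with a position 6 mismatch, in order of their change. The 26 lower peaks end at -1.28 and the uncalled ones at 0.74; the lowest point, -7.16, is Herc2 with 0 KO reads, whose fitted value depends on the prior count (-4.05 when KO is set to 3 reads over the group).

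The tested members ranged from peaks that lost most of their Ago reads in KO to a larger number near 0. A change of -2 or below was found for 18 members (24%), against 12.4% of all tested peaks. Between -2 and -1 lay 13 members (17.3%, against 6.80%), and between -1 and 1 lay 44 (58.7%, against 78.3%). No member was at 1 or above. Every KO library was below every WT library, in CPM (reads scaled to the library's total over the tested peaks), at 35 members, 9 of them not called, where 22.3% of all tested peaks did so. The opposite order held at 1 member, Atg9a, where the background was 10.1%.

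Shares of reads describe the called, uncalled and untested members without a fit. The 26 lower members, chosen for their fall, together took 0.0534 ± 0.00380% of the reads in KO Ago and 0.212 ± 0.0221% in WT Ago (SD, n = 3 each). The 49 uncalled members took 0.317 ± 0.0102% and 0.288 ± 0.00229%. The 2546 members with too few reads to test took 1.75 ± 0.0359% in KO Ago, against 2.37 ± 0.0763% in WT Ago, with no overlap between the groups. In IgG libraries these untested members took 2.36 ± 0.191% in KO and 2.41 ± 0.289% in WT. Untested peaks with no code for miR-451a or miR-144 went the other way in the Ago libraries, at 52.3 ± 0.212% in KO and 46.2 ± 1.52% in WT.

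**Figure D2:**
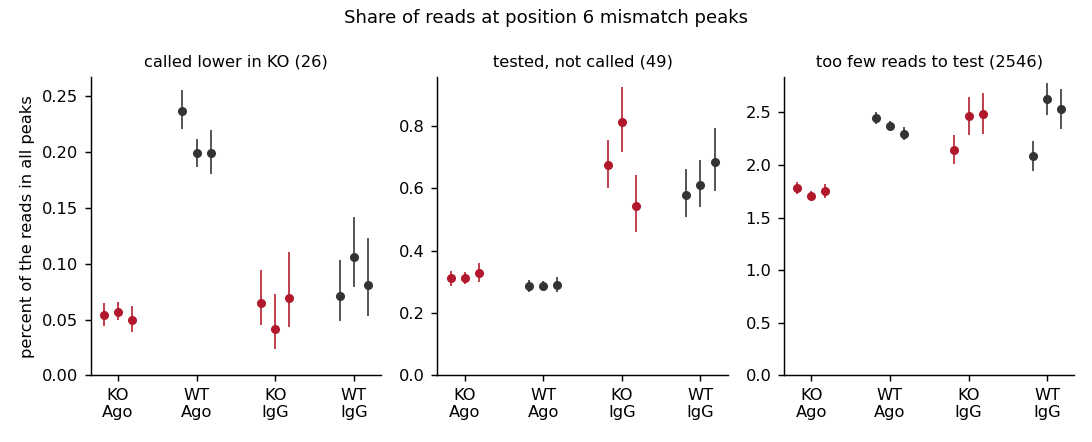
Percent of the reads in all peaks that fell on position 6 mismatch peaks, 1 point per library with its 95% Wilson interval (counting error only), for the lower, uncalled and untested members. KO Ago libraries lie below WT Ago libraries in the left and right panels, and the IgG libraries are shown beside them.

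The lower members are described by the known role of their genes; where no list is named, genes were put side by side after their values were seen, and no group was tested. Herc2, a giant ubiquitin ligase, had a coding peak at chr7:56068008-56068046 with 0, 0 and 0 reads in KO Ago libraries and 15, 32 and 12 in WT Ago libraries. Its Ago signal was at least 16.5-fold lower in KO, taking 3 reads over the group as the floor (edgeR adjusted p = 9.9e-05). Both genotypes were fully separated, and KO IgG libraries held 3 reads there and WT IgG libraries 0. Usp7, a deubiquitinase that acts on Mdm2 and p53, had a 3′UTR peak at chr16:8689964-8689995 with 3, 2 and 2 reads in KO and 29, 41 and 17 in WT. That is 67.7 ± 26.6 CPM in KO and 640 ± 74.7 CPM in WT (SD, n = 3 each), a log2 change of -3.30 ± 0.44 (SE, adjusted p = 0.00011). Usp46, another deubiquitinase, had 3, 3 and 1 reads in KO and 25, 29 and 16 in WT at its 3′UTR peak chr5:74001754-74001779. All KO values lay far below all WT values, with a change of -3.03 ± 0.44 (adjusted p = 0.00017).

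Among erythroid genes, 34 of the members lay in the list fixed for this cell type and 4 could be tested. Of these, 2 fell, that of Tfrc among them, and those of Slc25a37 and Urod were not called, where 34.7% of all tested members and 17.6% of all tested peaks fell. Tfrc, the transferrin receptor that brings iron into red cell precursors, had a coding peak at chr16:32620494-32620521 with 3, 2 and 2 reads in KO Ago libraries and 37, 46 and 14 in WT Ago libraries. The means were 67.7 ± 26.6 CPM in KO and 698 ± 222 CPM in WT (SD, n = 3 each; log2 change -3.44 ± 0.47, adjusted p = 0.00012). The WT libraries spread widely here, yet the lowest of them stood well above the highest KO library. Slc25a37, the mitochondrial iron importer mitoferrin, had 3, 10 and 6 reads in KO and 12, 26 and 12 in WT at a 3′UTR peak (-1.12 ± 0.40, adjusted p = 0.066). Urod, a haem synthesis enzyme, had 4, 14 and 8 reads in KO and 15, 21 and 14 in WT (-0.71 ± 0.39, adjusted p = 0.28). In CPM the groups did not overlap at either peak, although neither passed. Over all peaks in erythroid genes, members or not, 50 of 190 tested fell and 2 rose, with a median change of -0.43, against 428 lower and 34 higher of 2425 tested peaks and a median of 0.09.

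Ezh2, the histone methyltransferase of Polycomb complex PRC2, had a coding peak at chr6:47531805-47531825 with 3, 3 and 3 reads in KO and 26, 45 and 14 in WT, so that every KO library was far below every WT library (-2.88 ± 0.43, adjusted p = 0.00018). Smc6, a subunit of the Smc5/Smc6 genome maintenance complex, had 1, 2 and 0 reads in KO and 12, 30 and 11 in WT at chr12:11316619-11316641 in coding sequence. Pooled reads there were 14.8-fold higher in WT than in KO (95% exact interval 4.81 to 74.3), and edgeR gave -3.73 ± 0.58 (adjusted p = 0.00024). Top1, topoisomerase I, had 4, 0 and 0 reads in KO and 23, 29 and 9 in WT at chr2:160705212-160705262 (-3.54 ± 0.69, adjusted p = 0.0012). All 4 of its KO reads came from library 3. Top2a, the topoisomerase of dividing cells, had 6, 11 and 3 reads in KO and 22, 25 and 15 in WT at chr11:99009265-99009305 (-1.41 ± 0.38, adjusted p = 0.014). This last call was lost with DESeq2 (adjusted p = 0.06), without KO Ago library 13 (0.073) and when no filter was set (0.063). Of the list of mitosis and DNA replication genes, 5 members were tested: the peaks of Top1 and Top2a fell, and those of Mcm3, Aurka and a second Top2a peak were not called. For comparison, 34.7% of all tested members and 17.6% of all tested peaks fell. Over all peaks in that list, members or not, 25 of 71 tested fell and 0 rose, with a median change of -0.71.

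Among RNA-binding proteins, Hnrnpk, which binds C-rich RNA, had 1, 7 and 3 reads in KO and 24, 42 and 16 in WT at its 3′UTR peak chr13:58391762-58391801 (92.2 ± 54.9 CPM in KO, 594 ± 72.7 CPM in WT, SD, n = 3 each; -2.60 ± 0.44, adjusted p = 0.00041). It was the lower one of 3 tested members in the RNA-binding and translation list, and Eif4g2 (-0.63) and Tnrc6a (0.61) were not called. Over all peaks in that list, members or not, 12 of 63 tested fell and 4 rose (median 0.13), where 17.6% of all tested peaks fell. Further peaks of this kind lay outside that list and are named after their values were seen. The coding peak of the RNA helicase Ddx5 had 2, 10 and 2 reads in KO and 24, 25 and 16 in WT (-2.01 ± 0.44, adjusted p = 0.0032). The pseudogene Gm12183 had 2, 9 and 2 in KO and the same WT counts (-2.10 ± 0.44, adjusted p = 0.002), so that both may hold the same reads and are uncertain as separate loci. Ythdf1, a reader of methylated adenosine in mRNA (-2.50), the translation factor Eif5a (-1.59) and the ribosomal protein Rpl4 (-1.57) fell as well.

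Genes with other roles made up the rest. F2r, the thrombin receptor PAR1, had 2 lower peaks in its 3′UTR. One, at chr13:95603209-95603244, had 2, 2 and 0 reads in KO and 14, 23 and 13 in WT (-3.30 ± 0.55, adjusted p = 0.00037). The other, at chr13:95601876-95601969, had 7, 8 and 3 in KO and 31, 56 and 16 in WT (-2.19 ± 0.38, adjusted p = 0.00052). At both, all KO libraries were below all WT libraries. The counts of the first were within 10% of those of a peak in Vapa, and those of the Atp5b peak below within 10% of one in G2e3; whether reads were shared was not tested. Myh9, the heavy chain of non-muscle myosin IIA, had 1, 5 and 1 reads in KO and 23, 26 and 13 in WT in its 3′UTR (-2.86 ± 0.47, adjusted p = 0.00032). Hspd1, the mitochondrial chaperonin, had 0, 5 and 0 in KO and 28, 28 and 10 in WT (-3.41 ± 0.63, adjusted p = 0.00086). Fn3krp, a kinase that removes sugar adducts from proteins, had 2, 2 and 1 in KO and 16, 25 and 9 in WT (-2.97 ± 0.48, adjusted p = 0.00032). These KO counts are so low that 1 read, worth 19.0 to 38.0 CPM in a KO library, is a large part of the value. The 5′UTR peak of Ggnbp2 (-2.69) and an intronic peak of 1810013L24Rik (-3.36) fell too. Outside the rule for named members, and picked after their values were seen, were the calcium-binding protein sorcin (Sri, -1.28), the elongation factor Ell2 (-1.78), the ATP synthase subunit Atp5b (-1.56) and the plasma membrane calcium pump Atp2b4 (-1.37), all lower.

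**Figure D3:**
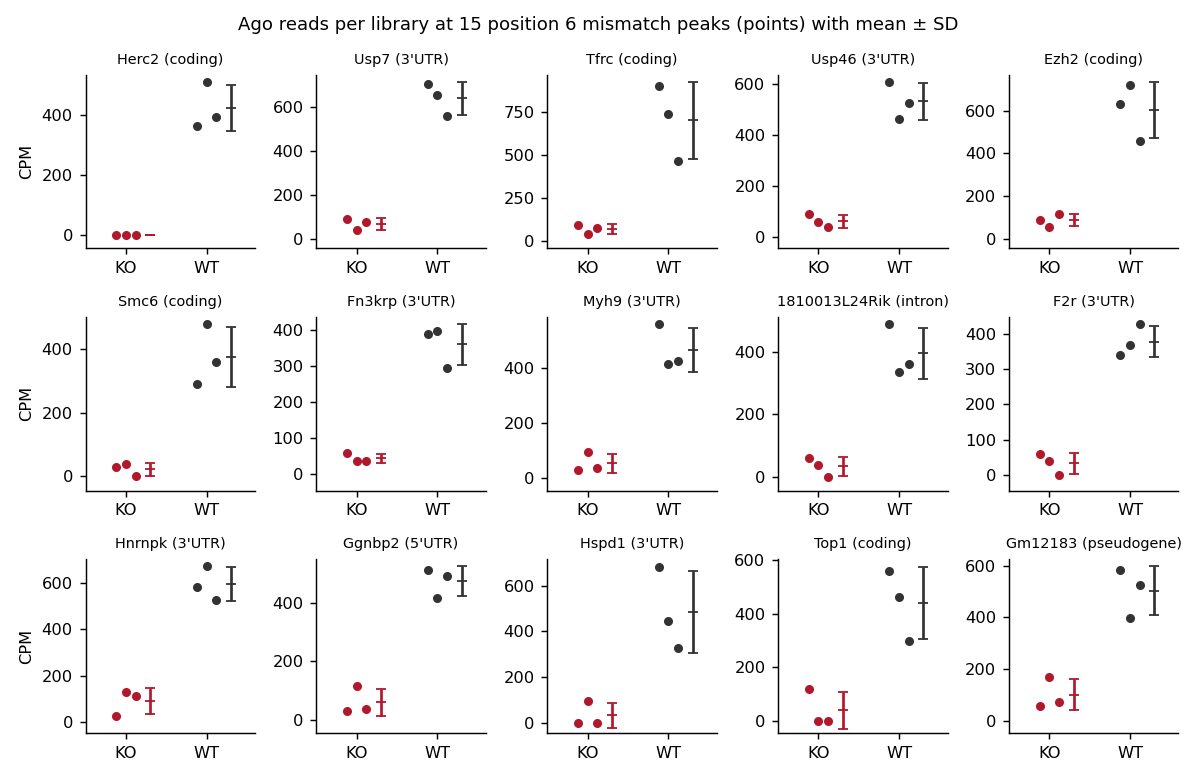
CPM over the tested peaks in KO (red, left) and WT (black, right) Ago libraries at 15 lower peaks, 1 of each of the 15 genes with the smallest p. Points are libraries in the order 3, 12, 13 and 1, 9, 10, bars show mean ± SD (n = 3), and each vertical axis has its own scale; the KO points lie below the WT points in every panel.

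Among members not called, those with the highest levels included Atg9a and Gm6768. Atg9a, a membrane protein of autophagosome formation, had 27, 46 and 24 reads in KO and 21, 43 and 11 in WT at its 3′UTR peak (0.68 ± 0.31, adjusted p = 0.18). Gm6768, whose counts were within 10% of those of Ncoa4, a ferritin receptor, in every library, had 10, 26 and 10 reads in KO and 36, 74 and 13 in WT (-1.10 ± 0.38, adjusted p = 0.058). Pooled reads at Gm6768 were 2.25-fold higher in WT than in KO (95% exact interval 1.59 to 3.22), and it was called lower without WT Ago library 1 or 10. Just outside the threshold, as a description, were also Dhx15 (adjusted p = 0.052), Ncoa4 (0.063), Slc25a37 (0.066) and Cbx5 (0.068), and just inside it was Atp2b4 (0.035).

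Peaks within 1 transcript did not all move alike. Top2a had 3 members in its coding sequence. That at chr11:99009265-99009305 fell, while the peak at chr11:99009793-99009820 had 51, 65 and 25 reads in KO and 48, 52 and 26 in WT (0.38 ± 0.31, adjusted p = 0.48). The third Top2a member, at chr11:99007003-99007049, had 1, 4 and 2 reads in KO and 12, 16 and 8 in WT and was tested only at a minimum count of 5 (-2.10, adjusted p = 0.0061). Herc2 had a second coding member at chr7:56050908-56050938 with 0, 0 and 0 reads in KO and 11, 16 and 10 in WT, which passed at that minimum (adjusted p = 0.00013). Smc6 likewise had 0, 1 and 0 reads in KO and 7, 15 and 9 in WT at a second coding member, chr12:11314607-11314627 (-4.33, adjusted p = 0.00055). Tfrc had 2 more coding members, with 5, 4 and 4 reads in KO and 7, 18 and 9 in WT at one, and 0, 0 and 0 in KO and 4, 7 and 3 in WT at the other. Neither had enough reads for the main test. The genes of the lower members also held 56 tested peaks that were not members, in 14 of the 25 genes. Peaks of Ddx5 and Gm12183, which may hold the same reads, were both counted. Of the 56, 16 fell and 1 rose (median -0.50), where 17.6% of all tested peaks fell. Of these, 28 peaks in 11 genes had no code for miR-451a or for either arm of miR-144, and 6 fell and 1, in Ell2, rose, with a median change of -0.42, where 76 of all 1210 tested peaks without such a code fell (6.28%, median 0.21). In Usp7, the 2 such peaks without a code were not called by edgeR (-0.17 and 0.07), whereas 2 of 6 fell in Tfrc, 2 of 3 in Top1 and the 1 tested in Ggnbp2 (-3.31). RNA abundance was not measured, so a change in Ago binding and a change in the transcript cannot be told apart for those genes.

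Peaks with a mismatch at another seed position are set beside the members as counts, without a test between codes. Of the members, 26 of 75 tested fell (34.7%, median -0.63). With the mismatch at position 5, 23 of 46 fell (50.0%, median -1.15), and at position 4, 7 of 25 (28%, median -0.73). With the mismatch at position 7, 29 of 41 fell (70.7%, median -2.69), and of peaks with a 6-mer or longer match, 49 of 53 (92.5%, median -3.44). The share at position 6 lay between those at positions 4 and 5. Of peaks without a miR-451a code, 90 of 1386 fell and 23 rose (6.49% lower, median 0.21). All these peaks lacked a miR-144-3p code. Among peaks with few tested, 1 of 7 fell with the mismatch at position 2 and 5 of 6 with an offset 6-mer, while at position 3 edgeR called 0 of 14 lower (1 at an unadjusted p under 0.05). The members outnumbered the classes at positions 5, 4 and 7 and the full matches before the filter, with 2621 peaks against 1560, 719, 1035 and 700.

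**Figure D4:**
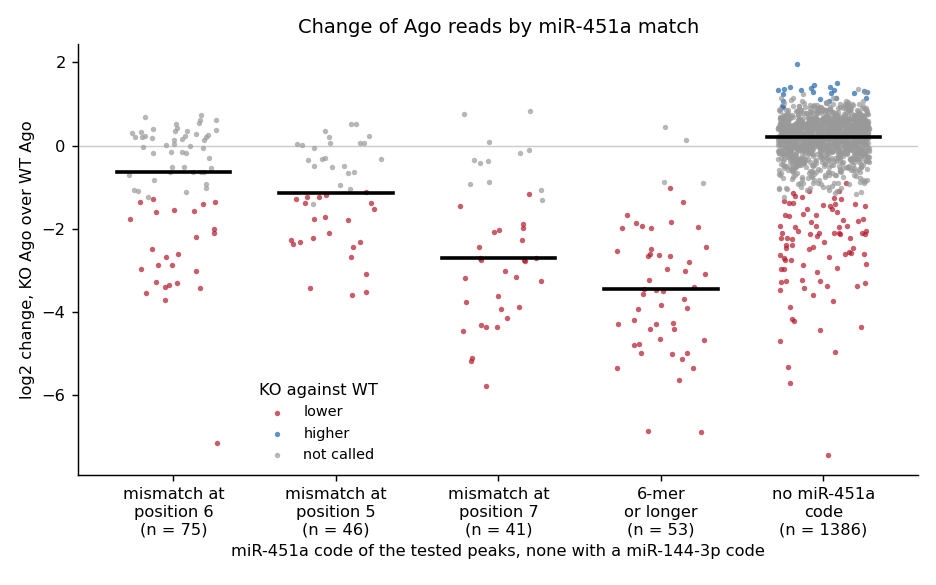
Log2 change of KO Ago over WT Ago (vertical axis) for tested peaks with a mismatch at position 6, 5 or 7, a 6-mer or longer match, or no miR-451a code, all without a miR-144-3p code. Points are peaks coloured by their call and bars are medians, at -0.63 for position 6 and 0.21 without a code.

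Several properties that the choice did not use varied among the tested members. By place in the transcript, 11 of 33 in 3′UTRs fell (all tested peaks, 160 of 903), 11 of 28 in coding sequence (175 of 912), 2 of 3 in 5′UTRs (16 of 74), 1 of 5 in introns (38 of 196) and 1 of 2 in pseudogenes (7 of 37). Outside genes edgeR called 0 of 4 lower, and 0 at an unadjusted p under 0.05 (all tested peaks, 26 of 251 called). The median change was -0.98 in coding sequence and -0.07 in 3′UTRs, against 0.00 and 0.11 for all tested peaks. Members that also had a code for miR-144-5p, the opposite arm of miR-144, fell at 6 of 13 (46.2%, median -1.12). Those without fell at 20 of 62 (32.3%, median -0.24), where 17.6% of all tested peaks fell (median 0.09). Of the lower peaks named above, those tested in Hspd1, Smc6, Top1 and Ddx5 carried a miR-144-5p code. The F2r peak at chr13:95601876-95601969 did too, as did the uncalled members in Slc25a37, Ncoa4 and Cbx5. Whether the changes at these peaks depended on miR-451a or on miR-144-5p was not tested. A code for miR-16-5p, an unrelated abundant microRNA, was present at 5 tested members, of which Sri and Ell2 fell. An authors' IgG ratio of 0.2 or more was found for 800 of the 2621 members; 6 of these were tested, and none was called by edgeR (changes from -0.51 to 0.51, smallest unadjusted p = 0.16). Of the 26, 18 had no code for any of the other microRNAs in the table. In a list of 18 known miR-451 target genes lay 2 members, and neither could be tested. Of 5 tested peaks in those genes, none of them a member, 4 fell, where 17.6% of all tested peaks fell. No member in hepatocyte, macrophage, megakaryocyte or granulocyte genes had enough reads for the test. The 93 other peaks tested in hepatocyte genes had a median change of 0.41.

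The second comparison set Ago against IgG, using the same Ago libraries as above. In WT, 24 members were tested, of which 12 were higher with Ago (35.9% of all 894 tested peaks were) and 10 lower (37.9%). Of the members lower in KO, 6 were tested here. They had been called because their WT Ago reads were high, so it is no independent evidence that all 6 were also higher in WT Ago than in WT IgG. Values included those of Ezh2 (1.71 ± 0.58), F2r (3.17 ± 0.69), Sri (4.22 ± 0.60), Usp7 (4.40 ± 0.78) and Ell2 (4.62 ± 0.81), as log2 changes of Ago over IgG. Ezh2 had the smallest difference of those 6, with 26, 45 and 14 reads in WT Ago libraries and 1, 7 and 6 in WT IgG libraries. In KO, 16 members were tested and 3 were higher with Ago, among them Atg9a and the uncalled Top2a peak (40.0% of 645 tested peaks were), and 9 were lower (23.3%). Those 9 were 8 intergenic peaks and 1 in Gm26561. An intergenic peak at chr10:82955270-82955300, for example, had 32, 12 and 16 reads in KO Ago libraries and 105, 88 and 42 in KO IgG libraries, and 15, 12 and 25 in WT Ago libraries and 59, 89 and 58 in WT IgG libraries. The counts higher with Ago became 0 in both genotypes without any 1 Ago library, and 43 to 47 in WT and 10 to 11 in KO without any 1 IgG library.

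Most members lay under the read minimum. With every member tested and no filter, 129 fell (4.92%, against 2.54% of all peaks). At a minimum count of 5, 261 members were tested and 75 fell (28.7%, against 13.3% of all 9485 tested peaks); 48 of those that fell, in 43 genes, had not been tested before, with changes up to -1.42 (the lowest, -6.55, is the second Herc2 member with 0 KO reads, a fitted value and no bound), and 21 lay in coding sequence and 15 in 3′UTRs. The authors' deposited table of differential peaks, on peak heights and another filter, listed 185 members, of which 127 were lower in KO and 1 higher at their false discovery rate of 0.05 (35.7% and 1.29% of its 6651 peaks), with a median of -2.55. It held 17 of the 26 lower members, all lower there too, and 146 members that were not tested here, 107 of them lower. Both analyses used the same libraries.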

How the data were processed

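The build mm10 and the tools STAR, cutadapt, limma and bedtools are named per the submitters' processing notes, whose versions and order of use are not given. Per the deposited column description, the authors' counts are raw reads overlapping a peak by at least 16 bases, on peaks called over all Ago libraries. The authors' deposited seed codes are a score, their deposited IgG ratio sets IgG over Ago peak height, and their deposited coverage signal was used only for peak height. The deposited log2 fold changes and p-values (false discovery rates) come from the authors' voom and limma fit.

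Counts were tested with edgeR 4.0.16 (R 4.3.3): TMM, filterByExpr (minimum count 10, total 15), quasi-likelihood test, Benjamini-Hochberg adjustment over all tested peaks at 0.05, with KO and WT Ago libraries in one fit and each Ago and IgG pair in its own. CPM uses TMM-scaled totals of the tested peaks. DESeq2 1.42.0, limma-voom 3.58.1, other filters, scaling and left-out libraries were alternatives. Intervals (Wilson or exact, 95%) cover counting error only. Members named were 1 per gene for the 15 smallest p among lower ones, the 5 highest levels among uncalled ones, and members in the gene lists; the members and lists were chosen with earlier results of these data known. On simulated counts for the 2425 peaks of KO against WT, 18% of 2-fold and 94% of 4-fold changes were recovered, with 9 false calls. Sequences came from RefSeq tables (GRCm38.p6); no genome was used. Members with date-like gene names (13) are not named. Some members that the naming rule gives are not reported here.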

Additional observations from a re-analysis of the deposited data

How the results depend on the processing

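The count of 26 lower members became 129 with no filter and 75 at a minimum count of 5. It ranged from 22 to 55 when 1 library was left out, reaching 55 of 153 tested when KO Ago library 3 was dropped, 49 of 157 when KO Ago library 13 was, and 49 of 135 when WT Ago library 10 was. In that order, 35.9%, 31.2% and 36.3% of the tested members were lower, against 20.4%, 18.2% and 16.8% of all tested peaks. More peaks passed the filter in these fits (4836, 4976 and 4780, against 2425). The count of lower members was 25 with library size alone, 22 with DESeq2, 25 with limma-voom, 22 without members whose counts match another peak and 20 without those with a miR-144-5p code. The count of higher members was 0 in all of these. The median change of -0.63 ranged from -1.14 to -0.70 with 1 library left out, and was -0.24 without members that hold a miR-144-5p code. With library size alone it was -0.46, while the median of all peaks moved to 0.25. The counts of members higher with Ago than with IgG ranged from 0 to 47 in WT and from 0 to 11 in KO with 1 library left out; fewer or more peaks then passed the filter (8 to 104 members in WT, 11 to 45 in KO). With library size alone or DESeq2 on all libraries these counts were 10 and 12 in WT and 3 and 3 in KO, against 12 and 3 in the main test. For named members, 228 of the repeated values kept their call; Top2a lost it in 3 and Gm6768 gained it in 2 (adjusted p = 0.047 and 0.007 when WT Ago library 1 or 10 was dropped), and none changed direction. Leaving out members with an IgG ratio of 0.2 or more, an alternative chosen after the data were seen, left all 26. Small changes were easily missed: on simulated counts with the same dispersion for all peaks, 18% of 2-fold changes were recovered. The parts of depth, spread and number of libraries in this were not tested. No paired analysis was run: each library has its own number, and the labels do not say which libraries, if any, share a liver.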
